A study of Mus musculus with 8 samples.

Results

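The 10 genes described here encode inflammatory and regulatory cytokines of macrophages, a cytokine receptor and 3 enzymes that activated macrophages use as effectors. They were taken by symbol from a table of 55357 genes as a check of the activation state of the cells, and all 10 were found. The cells were bone marrow-derived macrophages (BMDM), macrophages grown from the marrow of wild-type C57BL/6J mice in macrophage colony-stimulating factor. Poly(A) RNA was sequenced from 4 libraries of cells treated with So(d18:1), the sphingoid base sphingosine, at 2 μM for 6 h and from 4 control libraries of cells given its solvent methanol for the same 6 h. The labels name no inflammatory stimulus in either group, whereas the study's text places the cells under inflammatory stimulation. Which of these holds was not tested, as no library is labelled as a stimulated or unstimulated reference. Il6, Il12b and Nos2 had 0 to 8 counts per library over both groups, whereas the cytokine gene Il1b had 454 to 662. Libraries held 17748397 to 26088609 counts on genes. Nothing in the labels says whether the libraries came from separate mice or cultures, so p-values measure only the spread between these samples, which may be technical.

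A rise of 1 member, the itaconate gene Acod1, was the change that held against the spread between libraries. Acod1, the enzyme that makes itaconate, rose 1.52-fold, from 14.1 ± 1.10 to 21.4 ± 1.95 CPM (counts scaled to a common library size, mean ± SD, n = 4 each). Transcripts of Il6, Il12b and Nos2 were almost missing from all 8 libraries, at 0 to 8 counts each. Of the 7 genes with enough counts to be tested, only Acod1 passed an adjusted p under 0.05 in edgeR's quasi-likelihood test over all 14514 genes tested, where 8.94% of genes passed, 3.87% higher and 5.07% lower. The fitted log2 fold change was below 0 for 5 of the 7 and above 0 for Acod1 and Ptgs2, with a median of -0.26 against 0.0036 over all genes tested, and no conclusion on the 7 as a list was drawn from that median.

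Macrophages at rest make little of these cytokines. Microbial products such as endotoxin act through Toll-like receptors and NF-κB to switch on Tnf, Il1a, Il6 and Il12b, which alert other cells, and Nos2, Ptgs2 and Acod1, which make nitric oxide, prostaglandins and itaconate. Brakes are induced alongside them. IL-10 acts through a receptor whose ligand-binding chain is Il10ra and shuts down transcription of inflammatory cytokines. Il1rn encodes the IL-1 receptor antagonist, which occupies the IL-1 receptor without signalling.

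Upstream sequences of 4 members are shown because they cover the member that rose (Acod1), a pair of cytokines at low but measurable levels (Tnf, Il1a) and a cytokine close to 0 (Il6). Each is the stretch of 250 bases before the start site in RefSeq on GRCm38.p6, written 5′ to 3′ on the strand of the gene: chr14:103046762-103047011 on the plus strand for Acod1, chr17:35202008-35202257 on the minus strand for Tnf, chr2:129309973-129310222 on the minus strand for Il1a and chr5:30012864-30013113 on the plus strand for Il6. Capitals mark matches to 9 short motifs searched on both strands.
Acod1: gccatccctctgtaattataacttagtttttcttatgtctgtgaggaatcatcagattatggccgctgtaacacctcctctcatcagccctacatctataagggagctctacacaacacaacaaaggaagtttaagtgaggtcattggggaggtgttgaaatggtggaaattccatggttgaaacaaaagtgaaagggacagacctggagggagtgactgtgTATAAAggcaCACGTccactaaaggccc
Tnf: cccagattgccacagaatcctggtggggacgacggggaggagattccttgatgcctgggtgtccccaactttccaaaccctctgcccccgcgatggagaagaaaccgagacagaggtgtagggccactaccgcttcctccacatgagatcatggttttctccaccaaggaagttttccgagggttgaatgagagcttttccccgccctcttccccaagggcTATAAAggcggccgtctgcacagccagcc
Il1a: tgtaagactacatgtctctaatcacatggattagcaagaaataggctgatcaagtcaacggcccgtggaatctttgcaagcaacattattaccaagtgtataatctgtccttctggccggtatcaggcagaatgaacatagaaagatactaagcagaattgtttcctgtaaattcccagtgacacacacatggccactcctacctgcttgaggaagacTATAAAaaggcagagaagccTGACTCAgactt
Il6: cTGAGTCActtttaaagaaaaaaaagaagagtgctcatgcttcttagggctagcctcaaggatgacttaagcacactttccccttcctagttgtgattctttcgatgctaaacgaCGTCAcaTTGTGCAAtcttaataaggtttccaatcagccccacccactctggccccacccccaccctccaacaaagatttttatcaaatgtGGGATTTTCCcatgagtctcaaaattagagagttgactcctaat
In Acod1 the capitals mark a TATA box (TATAAA) 28 bases before the start and, from position -18 to -14, the core of the hypoxia response element (ACGTG, here on the other strand). Tnf has a TATA box at -29 and no other match, and Il1a has a TATA box at -32 with an AP-1 motif (TGANTCA) from -12 to -6. The window of Il6 holds an NF-κB motif of 10 letters from -44 to -35, an AP-1 motif, the core of the cyclic AMP response element (TGACG) and a C/EBP motif (TTGCNNAA), the latter 2 on the other strand. A search for the NF-κB motif by its consensus found it in 8.46% of 32851 promoter windows of 300 bases, the AP-1 motif in 7.81%, the cyclic AMP core in 20.8%, the C/EBP motif in 10.8%, the hypoxia core in 19.6% and the TATA box in 13.6%. The other motifs searched were the aryl hydrocarbon receptor core (GCGTG, 32.4% of windows), the NRF2 core (TGACNNNGC, 12.4%) and the interferon response element (3.44%), none of which matched in these 4 windows. The TATA boxes of 3 of the 7 members with a promoter entry lay within 20 to 40 bases before the start on the gene's strand, as in 1.99% of all windows, a range chosen after the matches were seen. Such matches describe letters and not binding. The members without an entry were Il10, Il10ra and Nos2.

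Levels of different genes were compared as CPM per kilobase of the gene length in the deposited table. By this measure the receptor Il10ra stood far above every cytokine and enzyme, at 104.1 CPM per kilobase over the 8 libraries, higher than or equal to 97.5% of the genes tested. Acod1 followed at 6.75 and then Il1rn at 3.29 and Tnf at 3.25, whose ranges over libraries overlapped. Below these came Il10 at 1.76, Il1a at 0.637 and Ptgs2 at 0.171. The lowest were Il6 at 0.0516, Nos2 at 0.0401 and Il12b at 0.0258, whose ranges overlapped each other and reached 0. Only 0.365% of tested genes had a level at or below that of Il6. Il6, Nos2 and Il12b had failed the count filter that all tested genes passed, so a low rank among those genes follows from the filter.

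**Figure D1:**
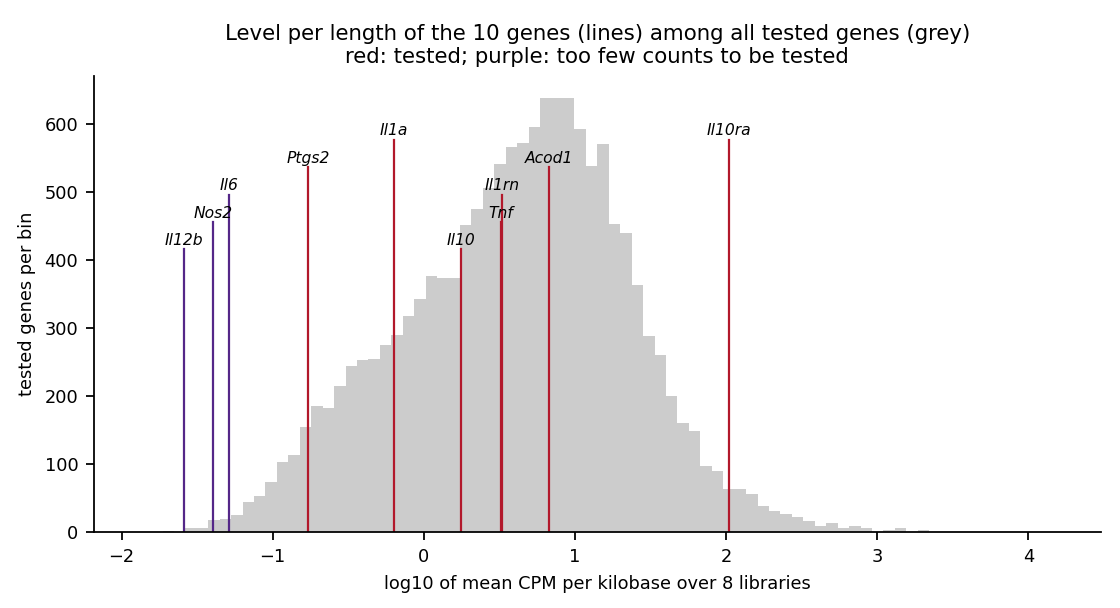
Level per length of the 10 genes (vertical lines) on the distribution over the 14514 tested genes (grey histogram), with log10 of the mean CPM per kilobase over 8 libraries on the x axis and genes per bin on the y axis. Il6, Nos2 and Il12b (purple, too few counts to be tested) lie at the far left, and Il10ra at 104.1 CPM per kilobase lies on the right flank.

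Acod1, also called Irg1, encodes the mitochondrial enzyme that turns cis-aconitate into itaconate, a metabolite that slows succinate dehydrogenase. Acod1 (ENSMUSG00000022126) lies on chromosome 14 from 103046977 to 103056573 (GRCm38) in 5 exons, none of which overlaps an exon of another gene, and the RefSeq start used above lies a short way inside it. Its control libraries had 13.8, 15.4, 14.3 and 12.8 CPM. Its So(d18:1) libraries had 22.3, 19.2, 23.6 and 20.4 CPM. Each treated library lay above each control library. The log2 fold change was 0.60 (standard error 0.085, 95% interval 0.42 to 0.78, adjusted p = 7.49e-05, edgeR's quasi-likelihood test). The call held with each library left out in turn, between 0.55 and 0.65, with a highest adjusted p of 0.000751 in edgeR. Over the 8 libraries the genes with the most similar course, by the root mean square difference of log2 CPM after centring, were Fam84b at 0.0931, Tiparp at 0.10 and Smim3 at 0.102. Tiparp, a mono-ADP-ribosyltransferase induced by the aryl hydrocarbon receptor, rose from 45.0 to 74.7 CPM and thus by 0.73 ± 0.055 (SE) in log2 units, at an edgeR adjusted p of 1.8e-08. Fam84b shares 41.7% of its exonic bases with 9930014A18Rik on the opposite strand, so its count is uncertain.

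**Figure D2:**
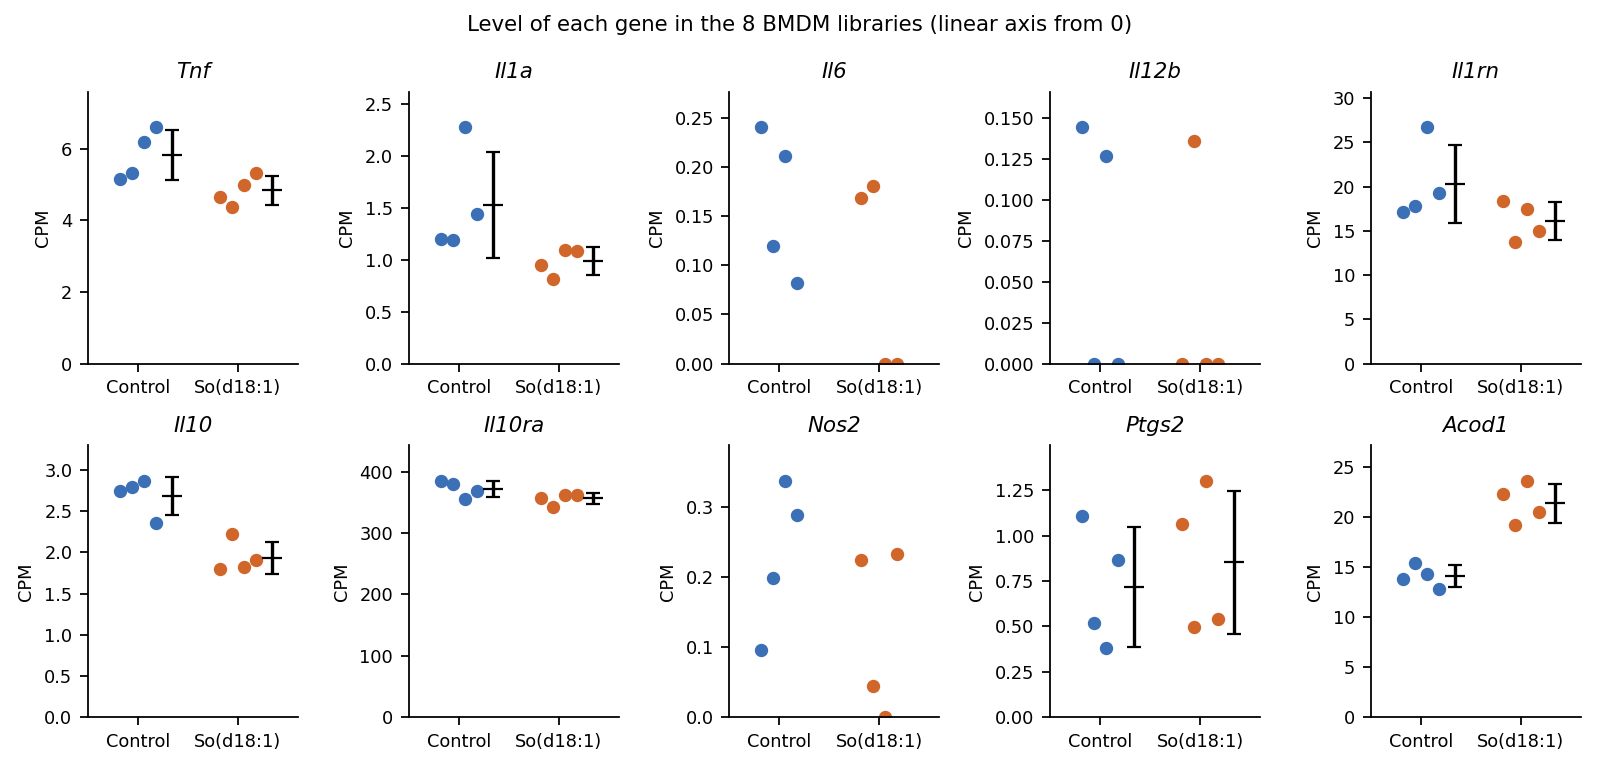
CPM of each of the 10 genes (y axis, linear from 0) in the 4 Control (blue) and 4 So(d18:1) (orange) libraries, ordered by replicate number within a group. Points are libraries, and for the 7 tested genes the bar gives mean ± SD. The groups of Acod1 stand apart, 12.8 to 15.4 against 19.2 to 23.6 CPM, while Il6, Il12b and Nos2 stay under 0.35 CPM.

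Tnf encodes tumour necrosis factor, made as a membrane protein and shed from the cell. Tnf (ENSMUSG00000024401) lies on chromosome 17 from 35199381 to 35202007 on the minus strand. Its control libraries had 5.15, 5.33, 6.20 and 6.60 CPM. Its So(d18:1) libraries had 4.65, 4.39, 5.00 and 5.32 CPM, so that only the highest treated library reached into the control range. The log2 fold change of -0.26 had a 95% interval of -0.54 to 0.0062 (standard error 0.13, adjusted p = 0.225, edgeR).

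The IL-1 ligand Il1a and its antagonist Il1rn lie on chromosome 2, Il1a from 129299610 to 129309972 and Il1rn from 24336853 to 24351494. Il1a, the membrane-bound and cytosolic IL-1α, had 1.20, 1.19, 2.28 and 1.44 CPM in control libraries, on 25 to 54 counts. In So(d18:1) libraries it had 0.953, 0.814, 1.09 and 1.09 CPM, on 17 to 28 counts. The groups did not overlap, yet the spread in control was wide and the log2 fold change of -0.63 (standard error 0.27, 95% interval -1.19 to -0.073) did not pass over all genes (adjusted p = 0.155, edgeR). It met the threshold of the study's methods, an unadjusted p under 0.05 with a fold change of at least 1.5, which Acod1 also met and which 3.89% of the tested genes met. Exons of Il1a share 11.2% of their bases with Gm14023 on the opposite strand, and without a stated strand setting those reads cannot be told apart.

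Il1rn had 17.2, 17.8, 26.7 and 19.3 CPM in control libraries. In So(d18:1) libraries it had 18.4, 13.8, 17.5 and 15.0 CPM. The groups overlapped, and control replicate 3 held the highest value, as it did for Il1a. The log2 fold change of Il1rn was -0.33 (standard error 0.14, 95% interval -0.65 to -0.017, adjusted p = 0.192, edgeR), and it passed where low counts were left unfiltered (adjusted p = 0.00405). Without control replicate 3 it was -0.17 for Il1rn and -0.37 for Il1a, with adjusted p of 0.353 and 0.487 in edgeR. The ratio of their counts was 13.6 ± 1.37 Il1rn counts per Il1a count in control and 16.5 ± 2.28 in So(d18:1) libraries (SD, n = 4 each), with overlapping ranges of 11.7 to 14.9 and 13.8 to 19.3.

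Neutrophils are a known source of Il1rn, and several of their markers fell. All 9 neutrophil markers examined, among them S100a8, Ngp and Elane, were above 1 CPM on average. Of the 9, 5 fell with an adjusted p under 0.05 (edgeR), where 5.07% of all tested genes did. Their summed level was 1688 to 2332 CPM in control and 1330 to 1510 CPM in So(d18:1) libraries, with the highest sum in control replicate 3. The part of neutrophil RNA in the values of Il1a and Il1rn was not tested, and fewer cells of a type and less RNA per cell cannot be told apart in bulk RNA.

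IL-10 restrains the inflammatory cytokines of this group. Il10 (ENSMUSG00000016529), on chromosome 1 from 131019845 to 131024974, had 2.74, 2.79, 2.87 and 2.35 CPM in control libraries, on 57 to 70 counts. In So(d18:1) libraries it had 1.79, 2.22, 1.82 and 1.90 CPM, on 32 to 49 counts. Every treated library was below every control library. Il10, Il1a and Acod1 were the 3 of 7 tested members whose groups did not overlap, where 15.0% of all tested genes showed this, 7.14% with So(d18:1) higher, as for Acod1, and 7.87% lower, as for Il10 and Il1a. The log2 fold change of Il10 was -0.47 (standard error 0.18, 95% interval -0.84 to -0.10) and did not pass over all genes (adjusted p = 0.106, edgeR). Its receptor chain Il10ra had 385, 379, 356 and 368 CPM in control and 358, 342, 363 and 362 CPM in So(d18:1) libraries. Il10ra is the member measured most precisely, and its log2 fold change of -0.063 had an interval of -0.15 to 0.024 (adjusted p = 0.395, edgeR).

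**Figure D3:**
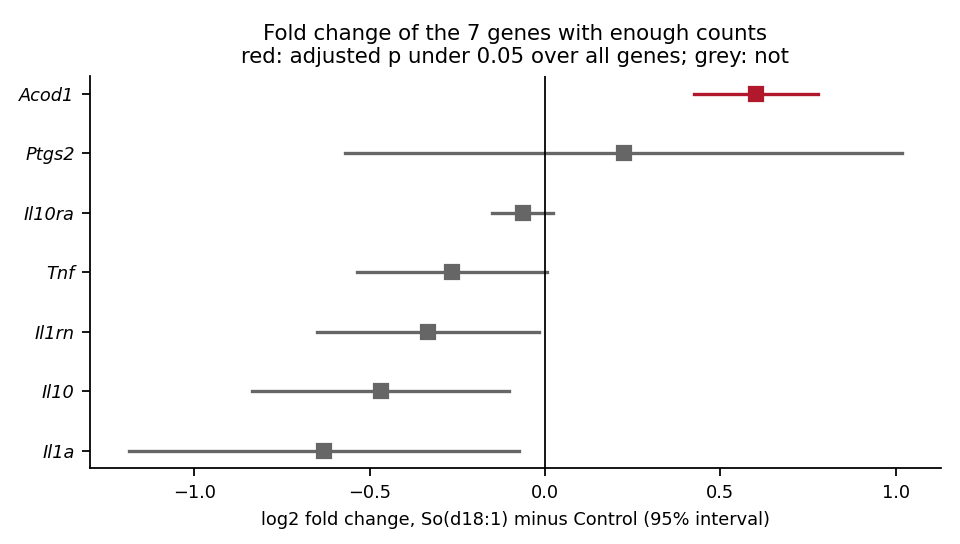
Fitted log2 fold change, So(d18:1) minus Control, for the 7 tested genes (squares) with 95% intervals (lines). Only the red interval of Acod1, 0.42 to 0.78, belongs to a gene with an adjusted p under 0.05, and the interval of Ptgs2 is the widest, from -0.57 to 1.02.

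Prostaglandin synthase 2, the inducible cyclooxygenase encoded by Ptgs2, was counted at 9 to 25 reads per library. Control libraries had 1.11, 0.517, 0.379 and 0.867 CPM. So(d18:1) libraries had 1.07, 0.498, 1.30 and 0.543 CPM, which covered the same range. A log2 fold change of 0.22 came with an interval of -0.57 to 1.02 (standard error 0.38, adjusted p = 0.779, edgeR) and a coefficient of variation of 46.1% in control and 46.4% in So(d18:1) libraries. Its direction turned to -0.053 without So(d18:1) replicate 3.

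Nos2, the inducible nitric oxide synthase, was counted 2, 5, 8 and 7 times in control and 4, 1, 0 and 6 times in So(d18:1) libraries. The 22 control counts gave 0.234 CPM with an exact 95% Poisson interval of 0.147 to 0.355, and the 11 treated counts gave 0.130 CPM (0.0647 to 0.232). Il6, a cytokine of the acute phase, was counted 5, 3, 5 and 2 times in control and 3, 4, 0 and 0 times in So(d18:1) libraries, or 0.160 CPM (0.0894 to 0.264) against 0.0824 CPM (0.0331 to 0.170). Il12b, the shared p40 chain of IL-12 and IL-23, had 3 counts in each of 2 control libraries and in 1 treated library, with 0 in the other 5. A count of 0 allows up to 3 counts, between 0.116 and 0.168 CPM in these libraries, and intervals and limits cover counting error only. Differences between the groups were not detectable in these 3 genes, with p = 0.229 for Nos2, 0.257 for Il6 and 0.714 for Il12b in two-sided exact permutation tests of CPM, which cannot give a p under 0.0286 with 4 against 4 libraries.

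Genes around these members were read from lists by role, which were chosen with earlier results of these data known. The share of a list that passed describes only that list. Whether it exceeds the share over all genes was not tested. Of 20 genes for prostaglandins and leukotrienes, 17 were tested and 6 passed, 3 in each direction, or 35.3% against 8.94% of all genes. The median log2 fold change of the list was -0.041. Ptgs1, the constitutive cyclooxygenase, was at 51.9 CPM per kilobase against 0.171 for Ptgs2, and it rose from 151 ± 10.1 to 252 ± 14.1 CPM (SD, n = 4 each). In log2 units this was 0.73 ± 0.052 (SE), with an edgeR adjusted p of 5.97e-09. Ptger3 and Ptger4 are receptors for prostaglandin E2 and went opposite ways. Ptger3 rose from 0.858 ± 0.114 to 1.70 ± 0.144 CPM, and Ptger4 fell from 31.5 ± 2.99 to 20.9 ± 1.69 CPM (SD, n = 4 each). The rise of Ptger3 rests on 16 to 45 counts per library, against 381 to 827 for Ptger4. An exon stretch of Ptger4 covering 15.3% of its bases overlaps Gm15937 on the opposite strand. The prostaglandin D2 synthase Hpgds fell, at -0.37 in log2 units (edgeR, adjusted p = 1.81e-05), as did the degrading enzyme Hpgd at -0.21 (adjusted p = 0.020, edgeR), while Abcc4, which exports prostaglandins, rose with 0.25 (adjusted p = 0.014, edgeR). With a library left out, Hpgd lost its call in 4 of 8 fits and Abcc4 in 2: Hpgd without control replicates 1 or 4 or So(d18:1) replicates 1 or 3 (adjusted p up to 0.081), and Abcc4 without replicate 4 of either group (up to 0.053).

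Receptors for the cytokines were mostly well expressed, and 4 of 12 passed (33.3%), with a list median of 0.14. Il6st, the signalling chain gp130 shared by IL-6 family cytokines, rose from 150 ± 6.73 to 192 ± 12.5 CPM (SD, n = 4 each). In log2 units this was 0.35, with an edgeR adjusted p of 6.78e-05. Il12rb1, the receptor chain that binds p40, rose from 1.74 ± 0.0665 to 2.96 ± 0.538 CPM. Il10rb, the accessory chain of the IL-10 receptor, fell from 159 ± 8.06 to 140 ± 3.81 CPM (adjusted p = 0.014, edgeR), although 14.9% of its exonic bases belong to Gm21970 on the same strand as well. Its call was lost without control replicate 3 or So(d18:1) replicate 1 (adjusted p up to 0.052). Ifngr1 rose by 0.15 on the log2 scale (adjusted p = 0.046, edgeR), a call lost in 7 of 8 such fits, all but that without control replicate 2 (adjusted p up to 0.17), and also with upper quartile scaling or at least 10 counts in every library. The TNF receptor Tnfrsf1b was the most abundant of the list by CPM and did not pass, at -0.14 in log2 units (edgeR, adjusted p = 0.0696). It passed by DESeq2 (adjusted p = 0.0448), with upper quartile scaling or no filter on low counts, and without control replicate 2 or So(d18:1) replicate 4.

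**Figure D4:**
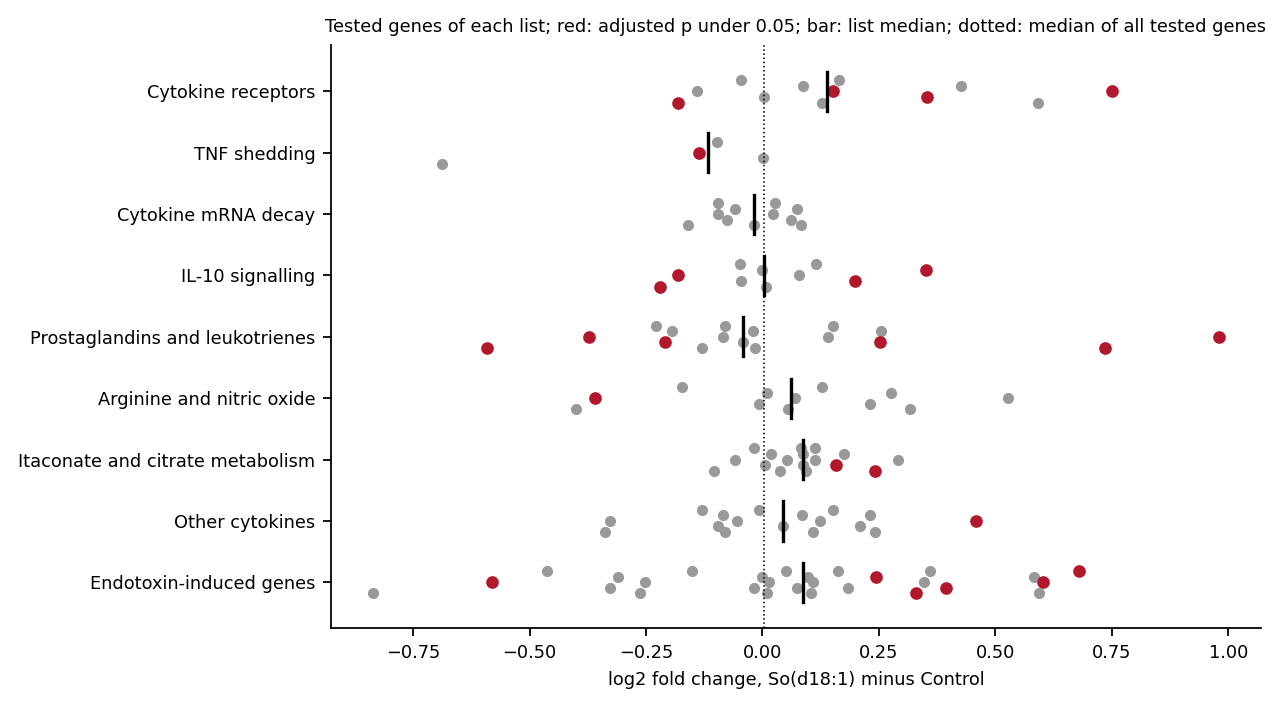
Log2 fold change, So(d18:1) minus Control (x axis), of the tested genes of 9 lists (rows). Red points had an adjusted p under 0.05, black bars are list medians and the dotted line is the median of all tested genes at 0.0036. The prostaglandin list spreads on both sides, from Ptger4 at -0.59 to Ptger3 at 0.98. None of the 11 genes listed for the control of cytokine mRNA decay is red.

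In the list for IL-10 signalling, which shares Il10rb with the receptors above, 4 of 10 genes passed (40%), 2 in each direction, and the median was 0.0027. The nuclear factors Nfil3 and Bcl3 rose with log2 fold changes of 0.35 and 0.20 (adjusted p = 0.00147 and 0.0413, edgeR), and the repressor Etv3 fell with -0.22 (adjusted p = 0.00245, edgeR). Il10rb was the other fall. The call of Bcl3 was lost in 6 of 8 fits, all but those without control replicate 4 or So(d18:1) replicate 3 (adjusted p up to 0.13), and also with upper quartile scaling or limma-voom. The most abundant genes of the list, Jak1 and Sbno2, had log2 fold changes of -0.047 and -0.049 that did not pass.

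Release of TNF and decay of its mRNA are among the steps that set how much TNF a cell yields. Adam17, the protease that sheds TNF, fell from 513 ± 8.40 to 467 ± 8.12 CPM (SD, n = 4 each; log2 fold change -0.14, adjusted p = 0.034, edgeR) as 1 of 4 genes for shedding to pass in the quasi-likelihood test (25%, median -0.12), where edgeR's likelihood ratio test called 2. The call of Adam17 was lost in each of the 8 fits with a library left out (adjusted p up to 0.11) and with no filter on low counts. Timp3, the inhibitor of that protease, met the study's threshold, at -0.69 in log2 units (edgeR, adjusted p = 0.0613), and is named after its value was seen. Rhbdf2, a partner of Adam17, had a log2 fold change of 0.0020, whose sign turned under 3 other settings and 4 of 8 fits with a library left out. Of 11 genes listed for the control of cytokine mRNA decay, 0 passed by edgeR, DESeq2 or limma-voom. In edgeR 1 of the 11 had an unadjusted p under 0.05, and the list median was -0.019. The most abundant of them, Zfp36l2 and Zfp36l1, which bind AU-rich elements, had log2 fold changes of 0.061 and -0.059 that did not pass, and 55.9% of the exonic bases of Zfp36l1 overlap Gm26669 on the opposite strand.

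Around Acod1, in the list for itaconate and citrate metabolism, 2 of 17 genes passed (11.8%), both upward, with a median of 0.087. Idh1, cytosolic isocitrate dehydrogenase, rose from 559 ± 12.6 to 661 ± 31.7 CPM and Cs, citrate synthase, from 147 ± 2.61 to 164 ± 3.96 CPM (SD, n = 4 each). These were log2 fold changes of 0.24 and 0.16 (adjusted p = 0.00096 and 0.018, edgeR), and that of Cs was lost without replicate 4 of either group (adjusted p up to 0.065). Sdha, a subunit of succinate dehydrogenase, was at -0.017 and did not pass. Around Nos2, 12 of 16 genes for arginine and nitric oxide were tested and 1 passed in the quasi-likelihood test (8.33%), against 2 by DESeq2, 1 by limma-voom and 3 by the likelihood ratio test, with a median of 0.062. The 1 was Slc7a2, the arginine importer, which fell from 8.62 ± 0.695 to 6.71 ± 0.344 CPM (SD, n = 4 each; adjusted p = 0.040, edgeR), a call lost in 7 of 8 fits, all but that without control replicate 2 (adjusted p up to 0.11), and with no filter on low counts. The most abundant genes of that list, Pts and Asl, had log2 fold changes of -0.0077 and 0.13 that did not pass.

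Among 27 other cytokines, 10 had too few counts to be tested, and Csf2 and Il33 had 0 counts in all 8 libraries. Of the 17 tested, 1 passed in edgeR's quasi-likelihood test (5.88%, median 0.044), against 3 by DESeq2, 2 by limma-voom and 2 by edgeR's likelihood ratio test. It was Il15, a growth factor for lymphocytes, rising from 29.0 ± 2.32 to 39.8 ± 0.800 CPM (SD, n = 4 each). In log2 units this was 0.46, with an edgeR adjusted p of 5.13e-05. Tgfb1 and Il16 were the most abundant, with log2 fold changes of 0.15 and 0.12 that did not pass in edgeR's quasi-likelihood test, although Tgfb1 passed by DESeq2 (adjusted p = 0.0468), with library size alone or no filter on low counts, and without control replicate 4. Further, 15.3% of the exonic bases of Il16 overlap Stard5 on the opposite strand.

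Of 32 genes that endotoxin induces in macrophages, 28 were tested, and in the quasi-likelihood test 5 rose and 1 fell. This was 21.4% against 8.94% of all genes, with a median of 0.086. DESeq2 and limma-voom called 7 each, and edgeR's likelihood ratio test called 8. Called or not, the fitted log2 fold change was above 0 for 18 of the 28 and below 0 for 10. The rises were in Gbp2, an interferon-inducible GTPase (log2 fold change 0.68), Ier3, an early stress response gene (0.60), the lectin receptor Clec4e (0.39), Tnfaip2 (0.33) and the transcription factor Irf1 (0.24), with adjusted p between 1.15e-07 and 0.00693 in edgeR. The chemokine Ccl3 fell from 23.1 ± 3.11 to 15.5 ± 1.16 CPM (SD, n = 4 each). In log2 units this was -0.58, with an edgeR adjusted p of 0.000277. Marcksl1, with Tnfaip2 among the 2 most abundant of the list, had a log2 fold change of 0.010 that did not pass.

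The libraries carried the markers of macrophages throughout. The 9 macrophage markers summed to 31096 to 33540 CPM in control and 26940 to 31923 CPM in So(d18:1) libraries. Of the 9, 1 was higher (Itgam) and 2 were lower (Cd68 and Mertk) at an adjusted p under 0.05 (edgeR). Among all tested genes, 3.87% were higher and 5.07% lower at that threshold. Besides neutrophils, monocyte markers were present at 1101 to 1472 CPM and dendritic cell markers at 17.7 to 26.5 CPM. The monocyte marker Ly6c2 fell from 27.1 to 21.0 CPM (adjusted p = 0.00295, edgeR) and Cd4, listed for T cells, from 22.9 to 17.1 CPM (adjusted p = 0.00865, edgeR), and their part in the values of the cytokines was not tested. Markers of T cells apart from Cd4, and those of B cells, mast cells, erythroid and stromal cells, were low, the highest of them being Kit at 5.25 CPM in control libraries. The share of counts on mitochondrial genes was 1.92% to 2.14% in control and 2.11% to 2.18% in So(d18:1) libraries.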

How the data were processed

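Counts per gene of 8 libraries, deposited by the authors as 1 table with gene lengths, were used as given. Per the study's methods, reads were trimmed with Trim Galore 0.6.7, aligned to mm10 with HISAT2 2.2.1 and counted with featureCounts 2.0.1. The strand setting is not given in the sources used here. Libraries were grouped by their labels and compared with edgeR 4.0.16 (R 4.3.3): TMM scaling, filterByExpr, robust quasi-likelihood F test, Benjamini-Hochberg adjustment over 14514 genes, called at adjusted p under 0.05. The study's threshold was an alternative. Scripts were tested on simulated data. CPM used effective library sizes, and 3 counts were worth 0.116 to 0.168 CPM. The members and lists were chosen with earlier results of these data known. Named were all members, per list up to 6 called genes of smallest p and the 2 most abundant tested genes, and the 3 genes most like each called member. Il1b was named besides these because the study measured its protein. Other scalings, filters, tools (DESeq2 1.42.0, limma-voom 3.58.1), a replicate block and leaving out each library were tried. Annotation was GENCODE on GRCm38.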

Additional observations from a re-analysis of the deposited data

Results flagged for a closer look

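In 3 of 94 groups of 4 libraries examined, 1 library stood far from the others, where chance gives about 1 in 20 groups, or 4.7. None of the 3 concerns a member. In control, Il10rb was at 7.42 log2 CPM in replicate 3 against 7.27 to 7.28 in the others, a gap of 0.885 of the whole range. Hpgd was at 6.38 in control replicate 3 against 6.58 to 6.62, a gap of 0.832 of the range. Cs was at 7.16 in control replicate 4 against 7.21 to 7.22, a gap of 0.878 of the range.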

How the results depend on the processing

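Acod1 was called under every alternative run, with log2 fold changes of 0.59 to 0.61 over 9 settings and 0.55 to 0.65 with a library left out. Members called numbered 2 rather than 1 under 3 settings: with no filter on low counts (adding Il1rn, adjusted p = 0.00405, edgeR), with a replicate block (adding Il1rn, adjusted p = 0.0270, edgeR) and under the study's threshold (adding Il1a). The cause was not tested. Genes called over the whole table numbered 564 under the study's threshold, 1784 with the replicate block and between 815 (without So(d18:1) replicate 2) and 1370 with a library left out. Replicate numbers were not shown to pair the libraries: deviations of same-numbered libraries correlated between -0.0035 and 0.10, and only replicate 2 correlated best with its own number. Rhbdf2 turned to -0.00030 with DESeq2 size factors, -0.0099 with upper quartile scaling and -0.0042 with at least 10 counts in every library, a filter that left Ptgs2 untested, and Marcksl1 to -0.0019 with upper quartile scaling. With a library left out, log2 fold changes ranged from -0.053 to 0.50 for Ptgs2, -0.050 to 0.056 for Rhbdf2, -0.052 to 0.054 for Pts, -0.030 to 0.00048 for Sdha and -0.031 to 0.064 for Marcksl1. Tgfb1 and Tnfrsf1b passed in edgeR with the replicate block (adjusted p = 0.0251 and 0.0351) and with no filter (0.0184 and 0.0435), Tgfb1 with library size alone (0.0431) and Tnfrsf1b with upper quartile scaling (0.0439). Calls were lost for Ifngr1 and Bcl3 with upper quartile scaling (0.0740 and 0.0536), Bcl3 with limma-voom (0.0504), Ifngr1 with at least 10 counts in every library (0.0530), and Adam17 and Slc7a2 with no filter (0.0563 and 0.0572). Il6, Il12b and Nos2 had too few counts for the test.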
